A study of Mus musculus with 9 samples.

Results

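The adhesion G protein-coupled receptors are the family whose gene symbols begin with Adgr. They were taken here as all genes with a platform symbol made of Adgr, a subfamily letter and a number, taken at whichever of its probe sets averaged highest across the 9 arrays. This gave 22 genes out of 18193 measured. The RefSeq gene table lists 27 genes with such symbols, and Adgrf2, Adgrf3, Adgrg4, Adgrg5 and Adgrg7 were not analysed here. Dorsal skin cells of 3 mice (2, 4 and 5) at postnatal day 2 were separated by flow cytometry into 3 gates, and every gate of every mouse was put on its own array. Gate R1 is GFP-CD133-, which the labels call dermal cells other than papilla. Gate R2 is GFP-CD133+ (papillae of zigzag hairs) and gate R3 is GFP+CD133+ (papillae of guard, awl and auchene hairs). The papilla is the mesenchymal core of a hair bulb. Prom1 encodes CD133, and in this mouse line GFP is known to report Sox2. The labels give no strain or further genotype.

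An adhesion receptor has a long extracellular part that binds other cells or matrix and a seven-helix part that signals through G proteins. Many members cut themselves in the extracellular part, and removal of the outer fragment exposes a tethered peptide that activates the receptor. The family is known for Adgrg6 (Gpr126), which Schwann cells need for myelination, for Adgra2 (Gpr124), a receptor of brain vessel growth, for Adgrf5 (Gpr116) and Adgrl4 (Eltd1) of endothelium, and for the neuronal latrophilins (Adgrl) and Bai receptors (Adgrb).

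Levels are log2 values made by RMA, and the median probe set of an array lay at 6.13 to 6.20. As a guide to background, each array's 95th percentile over 47 probe sets for olfactory receptors was used, which was 5.12 to 5.44. Of 12 listed dermal papilla genes, which include Prom1 and Sox2 behind the gates, 12 were higher in R3 than in R1 and 9 were higher in R2 than in R1 (limma, adjusted p under 0.05). R1 carried keratinocyte genes, 7 of 7 of which were higher there than in either other gate. The 3' minus 5' signal of the Actb controls, which tracks RNA integrity, was 0.04 to 0.07 in R1, 0.11 to 0.22 in R2 and 0.12 to 0.20 in R3 (log2). The Actb difference therefore moved with every comparison against R1. That of the Gapdh controls was 2.63 to 2.97 in R1, 2.57 to 2.85 in R2 and 2.68 to 3.02 in R3, with overlapping ranges. The part of RNA integrity in those results was not tested. In sorted bulk samples, fewer cells of a type and less RNA per cell cannot be told apart.

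Of the 22 receptors, 10 were called in at least 1 comparison and 12 in none (limma, adjusted p under 0.05). The share of all genes called in at least 1 comparison was not computed. Between R3 and R2, 3 were higher and 4 lower in R3, which is 31.8% of the members against 5.03% of all genes called in that comparison (1.97% higher and 3.06% lower). Adgrb3, Adgrg6 and Adgrl3 were higher, and Adgrf5, Adgrl4, Adgre5 and Adgrg3 were lower. Between R2 and R1, 6 members were higher in R2 and 0 lower, or 27.3% against 13.1% of all genes (6.89% higher and 6.16% lower). The 6 were Adgrb3, Adgrl3, Adgrf5, Adgrl4, Adgre5 and Adgrf1, and 9 members had an unadjusted p under 0.05 in either direction. Between R3 and R1, 3 were higher (Adgrb3, Adgrg6, Adgrl3) and 4 lower (Adgrf5, Adgrg1, Adgrg3, Adgra2), or 31.8% against 18.7% of all genes (7.9% higher and 10.8% lower). The 3 comparisons share arrays, so their counts are not independent of each other.

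**Figure D1:**
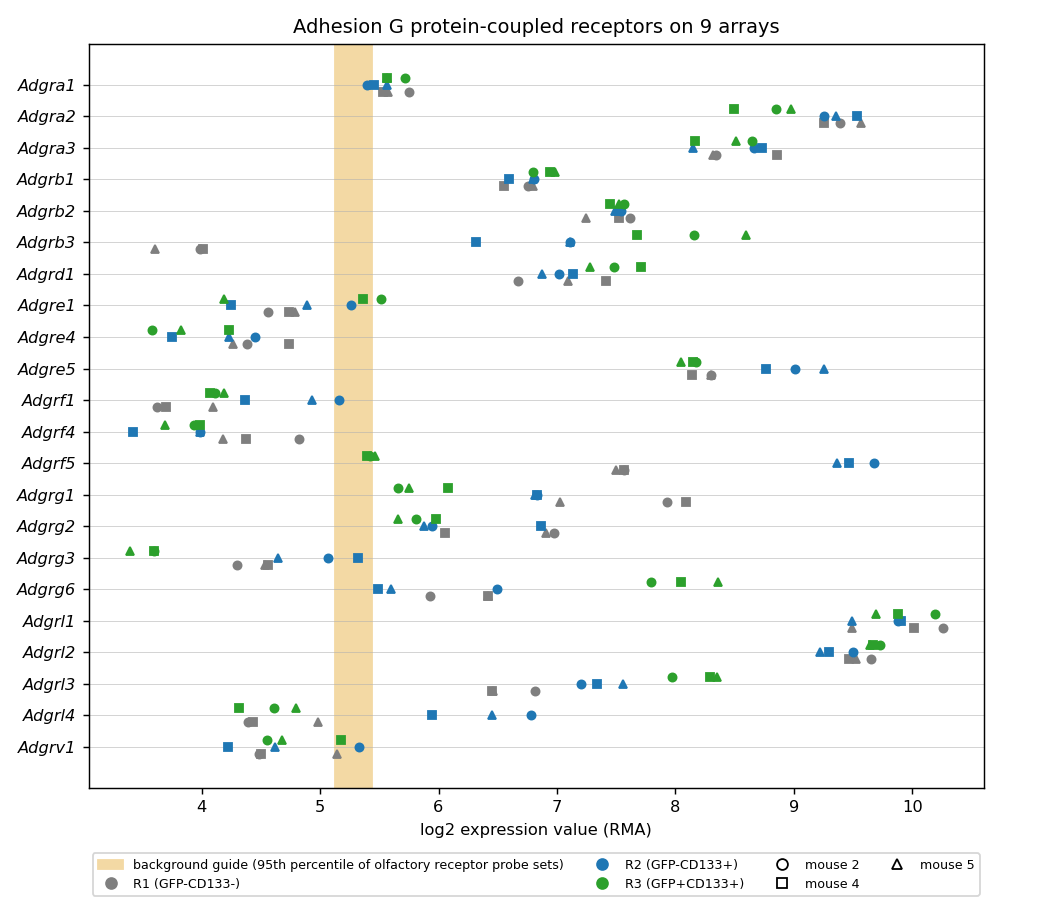
Log2 expression values (horizontal axis) of the 22 receptors (rows) on 9 arrays, coloured by gate and with a marker shape for each mouse. The shaded band is the background guide, from 5.12 to 5.44. Adgrf5 separates into R2 (9.36 to 9.68), R1 (7.50 to 7.57) and R3 (5.40 to 5.47), while the Adgrb2 arrays of the 3 gates overlap.

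The size of the differences varied widely within the family. The median log2 change of the members was 0.04 for R3 against R2, 0.01 for R2 against R1 and 0.00 for R3 against R1, beside medians of -0.01, -0.02 and -0.01 over all genes. Without regard to sign the median was 0.45, 0.35 and 0.38 for the members, and 0.19, 0.23 and 0.25 over all genes. The arrays of both gates did not overlap for 12 members between R3 and R2 (22.7% of all genes), for 9 between R2 and R1 (30.8%) and for 11 between R3 and R1 (34.4%). The count of members higher in R3 than in R2 was 1 instead of 3 when the R2 array of mouse 4 or the R3 array of mouse 5 was left out.

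**Figure D2:**
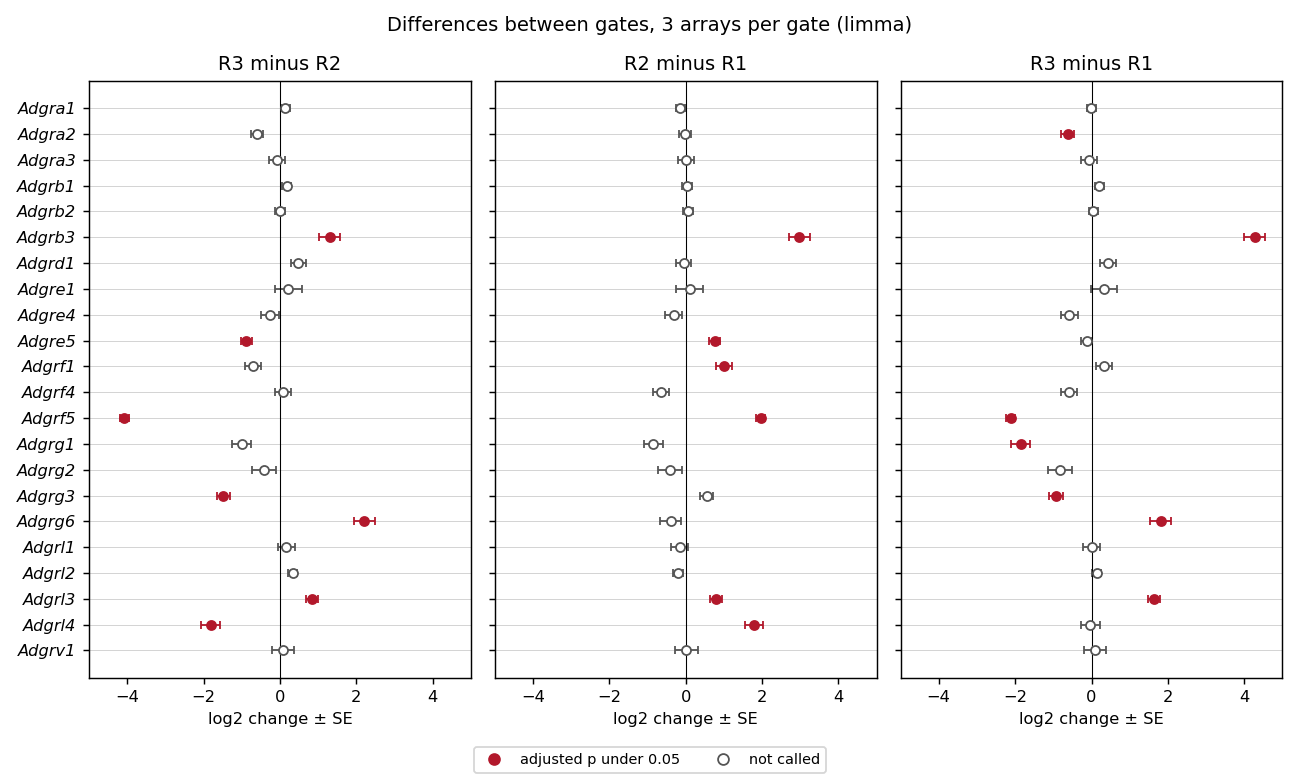
Log2 change between gates (horizontal axes, bars are the moderated standard error, 3 arrays per gate) for each receptor in the 3 comparisons. Filled points passed an adjusted p under 0.05. Adgrf5 lies far to the left in R3 minus R2 (-4.07), and Adgrb3 far to the right in R3 minus R1 (4.28).

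Adgrb3 and Adgrl3, both known as synaptic adhesion receptors of neurons, increased from R1 over R2 to R3. Adgrb3 (Bai3), a receptor of C1q-like secreted proteins, stood at 3.99, 4.01 and 3.60 in R1 of mice 2, 4 and 5, at 7.11, 6.31 and 7.11 in R2 and at 8.16, 7.67 and 8.59 in R3. All R1 arrays lay under the background guide and no arrays of different gates overlapped. Adgrb3 was thus 7.88-fold higher in R2 than in R1 (log2 change 2.98, standard error 0.28, n = 3 per gate, limma adjusted p = 0.000137) and 19.4-fold higher in R3 than in R1 (4.28, standard error 0.28, adjusted p = 1.27e-05), both against a dim level. Between R3 and R2 it was 2.46-fold higher (1.30, standard error 0.28, adjusted p = 0.0278), with the same sign in 3 of 3 mice. That call was lost without the R2 array of mouse 4 (adjusted p = 0.0797) or without the R3 array of mouse 2 (0.084) or mouse 5 (0.0745). It was also lost with the 6 arrays of R2 and R3 alone (0.064), and its adjusted p ranged from 0.0217 to 0.084 over all alternatives.

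Adgrl3 (latrophilin-3), which binds teneurins and FLRT proteins of neighbouring cells, stood at 6.81, 6.45 and 6.46 in R1, at 7.20, 7.34 and 7.56 in R2 and at 7.97, 8.29 and 8.35 in R3. At the probe set that represents the gene, the gates formed 3 steps with no overlap. Adgrl3 was 3.10-fold higher in R3 than in R1 (log2 change 1.63, standard error 0.16, limma adjusted p = 0.000147). The step from R1 to R2 was 1.73-fold (adjusted p = 0.0116) and that from R2 to R3 1.79-fold (adjusted p = 0.0177). The R3 to R2 call was lost without the R2 array of mouse 2 (adjusted p = 0.0728) or mouse 4 (0.0661), or the R3 array of mouse 4 (0.0709) or mouse 5 (0.0564). With the mean of its 6 probe sets the step from R1 to R2 was 0.39 on the log2 scale and not called (adjusted p = 0.0853). Taken singly, none of the other probe sets was called for that step (log2 changes of 0.06 to 0.58), and most overlapped between R1 and R2.

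Dermal papilla markers were also higher in the CD133+ gates. They include Prom1 and Sox2, the genes behind the gates, so the sort itself sets part of their counts and levels. Between R3 and R2, 6 of the 12 were higher in R3 and 1 was lower (Prom1, with means of 10.32 in R3 and 11.85 in R2). Their summed level (log2 of the sum of the 12 unlogged values) was 13.00 to 13.09 in R1, 13.93 to 14.02 in R2 and 14.84 to 14.99 in R3, and Sox2 and Rspo2 did not exceed the background guide on the R1 arrays. Whether these cells account for the receptor levels was not tested.

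Adgrg6 (Gpr126), the myelination receptor, was high in R3 alone. It stood at 5.93, 6.42 and 6.42 in R1 of mice 2, 4 and 5, at 6.49, 5.49 and 5.60 in R2 and at 7.80, 8.04 and 8.36 in R3. The R1 and R2 arrays overlapped, and each R3 array exceeded all of them. Adgrg6 was 4.61-fold above its R2 level in R3 (log2 change 2.20, standard error 0.27, limma adjusted p = 0.00148) and 3.51-fold higher than in R1 (1.81, adjusted p = 0.00155). R2 and R1 differed by -0.39 (95% interval -1.004 to 0.223, adjusted p = 0.412). A second probe set gave 6.70, 7.32 and 6.96 in R3 and a log2 change of 1.89 against R2 (adjusted p = 0.00674).

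Schwann cell and glial markers moved in the same comparison: 6 of 6 measured genes were higher in R3 than in R2, and 4 of 6 higher in R3 than in R1. Their summed level was 9.95 to 10.47 in R1, 8.17 to 8.80 in R2 and 12.44 to 12.50 in R3, with Cdh19 and Foxd3 at or under the background guide on all R1 and R2 arrays. The part of Schwann cell RNA in the Adgrg6 level was not tested. Among 3 measured genes known downstream of Adgrg6 in Schwann cells, 2 (Pou3f1 and Mbp) were higher in R3 than in R2. Mbp had means of 7.80, 5.92 and 11.95 in R1, R2 and R3. It is also among the 6 Schwann cell and glial markers, as the brightest of them in R3, so the 2 counts are not separate. Pou3f1 (Oct6), the transcription factor that precedes myelination, stood at 6.38, 5.24 and 6.21 in R2 and at 8.66, 8.31 and 8.31 in R3, a 5.58-fold difference (limma adjusted p = 0.000645). In R1 it stood at 7.94, 7.73 and 7.80, above R2 (adjusted p = 0.00155) and 1.52-fold under R3, a difference that was not called (adjusted p = 0.157). Egr2 (Krox20), which drives myelin genes, stood 1.39-fold above its R2 level in R3 and was not called (adjusted p = 0.0776).

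**Figure D3:**
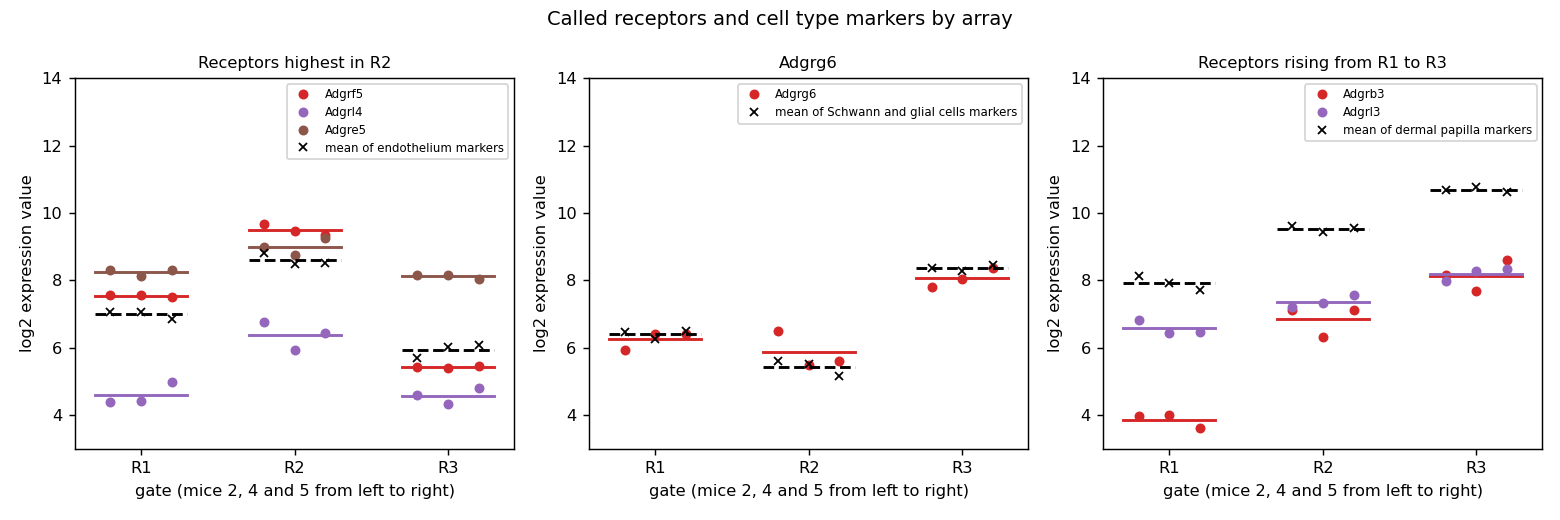
Log2 values (vertical axes) of called receptors on each array, by gate and with mice 2, 4 and 5 from left to right, beside the mean log2 level of marker lists (crosses). Solid and dashed bars are gate means. Adgrf5 and Adgrl4 peak in R2 with the endothelial markers, and Adgrg6 is high in R3 with the Schwann cell and glial markers. Adgrb3 and Adgrl3 step up as the mean of the dermal papilla markers does, which include Prom1 and Sox2 behind the gates.

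Adgrf5, Adgrl4 and Adgre5 were highest in R2. Adgrf5 (Gpr116), a receptor of endothelium and of lung surfactant control, stood at 7.56, 7.57 and 7.50 in R1, at 9.68, 9.46 and 9.36 in R2 and at 5.42, 5.40 and 5.47 in R3. Its R3 values lay in or just above the range of the background guide, and its gates were the most widely separated of the family between R3 and R2. R2 exceeded R1 3.89-fold (log2 change 1.96, standard error 0.12, limma adjusted p = 1.59e-05), and R3 lay 4.33-fold under R1 (-2.11, standard error 0.12, adjusted p = 5.84e-06). A second Adgrf5 probe set was lower in R3 than in R2 by 3.58 on the log2 scale, against 4.07 for the first, and was called in the same direction in all 3 comparisons.

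Adgrl4 (Eltd1), a receptor of growing vessels, stood at 4.39, 4.43 and 4.98 in R1, at 6.78, 5.94 and 6.45 in R2 and at 4.61, 4.32 and 4.80 in R3. It exceeded the background guide on the R2 arrays only, so its folds rest on dim levels in both other gates. R2 was 3.45-fold above R1 (log2 change 1.79, standard error 0.24, limma adjusted p = 0.00122) and R3 3.51-fold under R2 (-1.81, standard error 0.24, adjusted p = 0.00225). Its second probe set gave a wider drop from R2 to R3, of -3.06 on the log2 scale (adjusted p = 1.03e-05), from a mean of 6.49 to 3.44. That probe set was also lower in R3 than in R1 (-0.78, adjusted p = 0.00954), where the first gave -0.03 (adjusted p = 0.955), but both gates lay under the guide.

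Adgre5 (Cd97), a receptor of leukocytes and several other cell types that binds Cd55, stood at 8.30, 8.14 and 8.30 in R1, at 9.01, 8.76 and 9.25 in R2 and at 8.17, 8.15 and 8.04 in R3. All arrays were well above the guide, and the R1 and R3 ranges overlapped while R2 stood apart. It was 1.69-fold higher in R2 than in R1 (limma adjusted p = 0.00734) and 1.85-fold below its R2 level in R3 (adjusted p = 0.00653). R3 and R1 differed by -0.12 (95% interval -0.44 to 0.20, adjusted p = 0.618).

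Adgrf1 (Gpr110), a receptor known from neural development, was called 2.02-fold higher in R2 than in R1 (limma adjusted p = 0.0118). Its values of 3.62, 3.70 and 4.10 in R1, 5.16, 4.37 and 4.93 in R2 and 4.12, 4.07 and 4.19 in R3 exceeded the background guide on 0 of 9 arrays. This difference therefore lies within dim signal.

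Endothelial markers followed the same order of gates as Adgrf5. Of 8 endothelial genes, 8 were lower in R3 than in R2, 7 higher in R2 than in R1, and 5 lower and 1 higher in R3 than in R1. Their summed level was 9.94 to 10.24 in R1, 11.64 to 11.94 in R2 and 9.07 to 9.44 in R3, and Emcn and Robo4 were at or under the background guide on all R3 arrays. Of 5 lymphatic markers 3 were lower in R3 than in R2. Leukocyte markers, which could also carry Adgre5, were called in 0 of 10 cases between R3 and R2, and 4 of 10 were lower in R2 than in R1. The part of endothelial RNA in the receptor levels was not tested.

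The promoters are shown for receptors that differed in opposite directions between R3 and R2. Between R2 and R1 this division does not hold: Adgrb3 and Adgrl3 were higher in R2, as were Adgrf5 and Adgrl4, and Adgrg6 was not called. RefSeq promoter windows (GRCm38.p6) were found for 17 of the 22 members and for 8 of the 10 called ones. The 250 bases before the start of transcription are printed for 3 receptors highest in R3 and for 2 highest in R2, at the start farthest upstream where a gene has several, 5′ to 3′ on the gene's strand. Capitals mark matches on either strand to 6 motifs. The GC box was searched as GGGCGG. The TATA box was searched as TATAAA. The CCAAT box was searched by its name. The ETS core was searched as CGGAAG. The SOX core was searched as AACAAT. The forkhead core was searched as TGTTTAC. No match of one of these overlapped another in these 5 windows. The windows are chr1:25829708-25829957 (minus strand) for Adgrb3, chr5:81020321-81020570 (plus) for Adgrl3, chr10:14545037-14545286 (minus) for Adgrg6, chr17:43360181-43360430 (plus) for Adgrf5 and chr3:151437632-151437881 (plus) for Adgrl4.
Adgrb3: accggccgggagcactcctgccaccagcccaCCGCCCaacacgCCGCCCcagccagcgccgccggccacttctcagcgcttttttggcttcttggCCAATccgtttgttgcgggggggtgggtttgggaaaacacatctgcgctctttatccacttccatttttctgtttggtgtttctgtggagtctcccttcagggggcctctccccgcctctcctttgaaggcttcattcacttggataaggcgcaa
Adgrl3: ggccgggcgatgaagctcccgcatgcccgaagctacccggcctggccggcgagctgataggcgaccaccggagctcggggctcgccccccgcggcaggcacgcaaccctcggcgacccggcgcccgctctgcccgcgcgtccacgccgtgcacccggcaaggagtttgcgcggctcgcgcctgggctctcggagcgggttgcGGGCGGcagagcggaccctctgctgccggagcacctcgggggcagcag
Adgrg6: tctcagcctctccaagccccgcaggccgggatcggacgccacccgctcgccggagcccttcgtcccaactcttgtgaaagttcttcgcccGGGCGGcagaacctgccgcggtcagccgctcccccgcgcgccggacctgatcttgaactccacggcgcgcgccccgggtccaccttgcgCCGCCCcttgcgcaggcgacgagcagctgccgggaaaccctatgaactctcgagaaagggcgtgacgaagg
Adgrf5: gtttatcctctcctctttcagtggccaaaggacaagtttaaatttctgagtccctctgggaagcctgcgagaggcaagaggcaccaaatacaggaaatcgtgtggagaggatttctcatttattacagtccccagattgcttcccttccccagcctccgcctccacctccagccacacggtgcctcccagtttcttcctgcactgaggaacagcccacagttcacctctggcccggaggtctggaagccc
Adgrl4: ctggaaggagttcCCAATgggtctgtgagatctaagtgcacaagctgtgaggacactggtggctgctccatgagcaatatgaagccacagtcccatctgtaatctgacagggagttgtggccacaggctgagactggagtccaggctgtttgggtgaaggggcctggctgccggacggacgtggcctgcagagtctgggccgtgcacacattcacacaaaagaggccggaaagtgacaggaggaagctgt

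GC content was 59.2% for Adgrb3, 76.8% for Adgrl3 and 69.6% for Adgrg6, against 54.4% for Adgrf5 and 56.8% for Adgrl4. The same windows held 14, 36 and 32 CpG dinucleotides in the R3 group and 5 and 5 in the R2 group. Over all 32851 promoter windows the median was 52.4% GC and 6 CpG. Each printed window of the R3 group held a GC box (2 in Adgrb3, 1 in Adgrl3, 2 in Adgrg6). Neither printed window of the R2 group did, where 32.7% of all windows hold one. A CCAAT box stood in the Adgrb3 and Adgrl4 windows, as in 33.8% of all windows. The TATAAA, ETS, SOX and forkhead letters, found in 12.4%, 13.6%, 9.42% and 3.17% of all windows, were not in these 5 windows. Of all 17 member windows, 9 held a GC box. Among them were those of Adgrf1 and Adgrg3, called receptors whose gate means were also highest in R2. The GC box therefore did not separate the receptors highest in R2 from those highest in R3. This is a description with no test, and letters not found in a window say nothing of the factor.

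Adgrg1, Adgrg3 and Adgra2 were lowest in R3. Adgrg1 (Gpr56), a receptor of cortical development that binds tissue transglutaminase and collagen III, stood at 7.93, 8.09 and 7.03 in R1, at 6.83, 6.83 and 6.82 in R2 and at 5.66, 6.08 and 5.75 in R3. The gates did not overlap, with the R1 array of mouse 5 close to the R2 arrays. R3 was 3.61-fold under R1 (log2 change -1.85, standard error 0.25, limma adjusted p = 0.000865). The intermediate steps missed the threshold, at -0.85 for R2 against R1 (adjusted p = 0.0536) and -0.998 for R3 against R2 (adjusted p = 0.0544). With the mouse as a fixed replicate block the R2 to R1 step was called (adjusted p = 0.0455), and without the R1 array of mouse 5 both steps were called (adjusted p = 0.00234 and 0.00536). The probe set that represents Adgrg1 is of a type whose probes can match other sequences. A second probe set was also lower in R3 than in R1 (-1.20, adjusted p = 0.0275), although its value was the same on 4 of the 9 arrays.

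Adgrg3 (Gpr97), a receptor of granulocytes and other leukocytes that neighbours Adgrg1 on chromosome 8, stood at 4.30, 4.56 and 4.54 in R1, at 5.07, 5.32 and 4.65 in R2 and at 3.60, 3.60 and 3.39 in R3. Only the R2 array of mouse 4 exceeded its background guide. On this dim scale R3 was 2.79-fold under R2 (log2 change -1.48, standard error 0.18, limma adjusted p = 0.00119) and 1.91-fold under R1 (-0.93, adjusted p = 0.00548).

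Adgra2 (Gpr124), a co-receptor for Wnt7 in vessels, stood at 9.38, 9.25 and 9.56 in R1, at 9.25, 9.54 and 9.36 in R2 and at 8.85, 8.49 and 8.98 in R3. Each R3 array lay under all R1 and R2 arrays, which overlapped each other. It was 1.54-fold lower in R3 than in R1 (log2 change -0.63, standard error 0.16, limma adjusted p = 0.0222). This call was lost without the R1 array of mouse 2 (adjusted p = 0.056) or mouse 5 (0.0697), or the R3 array of mouse 4 (0.0752). Against R2 the change was -0.61 (adjusted p = 0.0623).

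Several marker lists moved with these 3 receptors between R3 and R1. Of the measured genes, 7 of 7 keratinocyte, 5 of 6 melanocyte, 4 of 10 leukocyte, 5 of 8 endothelial, 3 of 5 lymphatic, 5 of 8 fibroblast, 5 of 8 pericyte and smooth muscle, 4 of 6 skeletal muscle and 4 of 5 adipocyte genes were lower in R3. Of the pericyte and smooth muscle genes 2 were higher, of the endothelial genes 1, and of the others 0. The summed level of keratinocyte genes was 13.79 to 14.36 in R1, 11.04 to 11.10 in R2 and 10.72 to 11.66 in R3. That of leukocyte genes was 11.77 to 12.34, 10.23 to 10.70 and 10.34 to 11.04, with Itgam and Fcer1a at or under the guide in all gates. That of melanocyte genes was 11.00 to 11.34, 9.48 to 10.09 and 9.08 to 10.01, with Tyr at or under the guide on all R3 arrays. Between R3 and R2, where Adgrg3 was also lower, 8 of 8 endothelial, 3 of 5 lymphatic, 3 of 8 fibroblast, 2 of 8 pericyte and smooth muscle, 1 of 6 skeletal muscle and 2 of 5 adipocyte genes were lower, and 0 of 10 leukocyte, 7 keratinocyte and 6 melanocyte genes. The summed level of fibroblast genes was 15.78 to 15.82, 15.04 to 15.25 and 14.91 to 14.99, with none at the guide. That of adipocyte genes was 13.54 to 13.78, 13.01 to 13.27 and 12.10 to 12.34, with Adipoq at or under the guide on all R3 arrays. That of skeletal muscle genes was 8.69 to 8.88, 7.77 to 8.07 and 7.38 to 7.65, with Myf5 at or under the guide in all gates. That of pericyte and smooth muscle genes was 12.82 to 12.92, 12.72 to 12.91 and 12.60 to 12.80, and that of lymphatic genes 11.11 to 11.29, 11.30 to 11.55 and 10.02 to 10.38. The pericyte and smooth muscle sum joins genes of opposite direction. Acta2 had means of 10.75, 12.03 and 11.98 in R1, R2 and R3, Rgs5 of 11.32, 8.97 and 8.89, and Kcnj8 of 10.01, 7.69 and 6.55. The part of these cell types in the receptor levels was not tested.

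The other 12 receptors were called in no comparison, with log2 changes between -0.83 and 0.48. Above the background guide on all arrays were the latrophilins Adgrl1 and Adgrl2, Adgra3 (Gpr125), Adgrb1 (Bai1), which takes up dying cells, Adgrb2, Adgrd1 (Gpr133) and Adgrg2 (Gpr64), known from the epididymis. Adgrl1 had means of 9.92 ± 0.39 in R1, 9.76 ± 0.23 in R2 and 9.92 ± 0.25 in R3 (SD, n = 3). Its R3 to R1 change was 0.00 with a 95% interval of -0.49 to 0.49. Adgrb2 had means of 7.46 ± 0.19, 7.52 ± 0.02 and 7.51 ± 0.06, with a 95% interval of -0.29 to 0.28 for R3 against R2. Missing the threshold does not show that levels are equal.

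The uncalled Adgrl2 and Adgrd1 did not overlap between R3 and R2, as was the case for 22.7% of all genes. Adgrl2 stood at 9.72, 9.66 and 9.64 in R3 and at 9.50, 9.30 and 9.22 in R2 (log2 change 0.34, limma adjusted p = 0.17). Of its other probe sets, 1 gave 0.44 without overlap and 1 gave 0.04 with overlap. Adgrd1 stood at 7.48, 7.71 and 7.28 in R3 and at 7.01, 7.14 and 6.87 in R2 (0.48, adjusted p = 0.233). R1 lay at 9.46 to 9.65 for Adgrl2 and at 6.67 to 7.42 for Adgrd1, and overlapped both other gates. Adgrg2 gave the most negative uncalled value, -0.83 for R3 against R1 (adjusted p = 0.0941), with the R1 array of mouse 4 at 6.05 under both other R1 arrays (6.98 and 6.91).

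Adgra1 lay at 5.40 to 5.75 on all arrays, near the guide. Adgre1, a macrophage surface marker, exceeded the guide on 2 of 9 arrays, both of R3 (5.51 and 5.36). Adgre4, a myeloid receptor, and Adgrf4 (Gpr115) exceeded it on 0 arrays, and Adgrv1 (Vlgr1), the giant receptor of inner ear hair cells, on 1. Csf1r, the growth factor receptor of macrophages, stood at 9.49 to 10.24 in R1, 8.70 to 9.95 in R2 and 9.44 to 10.55 in R3. Other macrophage genes of the leukocyte list were less bright. Over all arrays Cd68 stood at 7.11 to 8.34, Cd14 at 4.78 to 6.33, Cx3cr1 at 4.72 to 5.37 and Itgam at 4.24 to 4.73. A second Adgre4 probe set was called lower in R2 and in R3 than in R1 (-0.87 and -0.83, limma adjusted p = 0.0237 and 0.0204) with means of 4.68, 3.81 and 3.85, all under the guide.

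Agreement between probe sets could be examined for the 12 members that had several, 41 probe sets in all. Both probe sets of Adgrf5, Adgrg6 and Adgrl4 were called in the same direction between R3 and R2. All 6 probe sets of Adgrl3 were higher in R3 than in R2, by 0.30 to 0.94 on the log2 scale, and 2 of them were called. One of these was a probe set other than the one that represents the gene, at 7.65, 7.47 and 7.54 in R3 against 6.54, 6.54 and 6.77 in R2 (limma adjusted p = 0.0037 over all probe sets). For Adgrg2, a second probe set of dim signal turned the R3 to R1 change from -0.83 to 0.14, and neither was called.

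Ligands and partners known for these receptors were examined next. Of 22 measured ligand and partner genes, 1 was higher and 2 lower in R3 than in R2 (medians 0.01, and -0.01 over all genes). Between R2 and R1, 5 were higher and 4 lower in R2, and between R3 and R1, 4 were higher and 6 lower in R3. The shares of all genes called in these comparisons were 5.03%, 13.1% and 18.7%, in either direction. C1ql3, a secreted ligand of Adgrb3, was the single higher gene of R3 against R2. It stood at 5.79, 5.31 and 5.94 in R1, at 3.96, 5.38 and 4.74 in R2 and at 8.44, 8.54 and 8.97 in R3. The R2 arrays of mice 2 and 5 lay under the background guide, so the fold against R2 rests on a dim level. It was 15.5-fold above its R2 level in R3 (log2 change 3.96, standard error 0.33, limma adjusted p = 0.000137) and 7.84-fold higher than in R1 (adjusted p = 0.000261). Receptor and ligand were thus both highest in R3, but in R2, where Adgrb3 was above R1, C1ql3 was not (-0.99, adjusted p = 0.0817). C1ql1 and C1ql2 were called in no comparison.

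Tgm2, the tissue transglutaminase that binds Adgrg1, stood at 10.34, 10.07 and 10.50 in R1, at 10.52, 10.78 and 10.91 in R2 and at 8.72, 8.11 and 8.50 in R3. R3 was 4.91-fold under R2 (limma adjusted p = 0.000131) and 3.64-fold under R1 (adjusted p = 0.000156). Col3a1, the collagen ligand of Adgrg1, changed by -0.28 at most in R3 (against R1, adjusted p = 0.111). Cd55, the ligand of Adgre5, was 2.32-fold lower in R3 than in R1 (adjusted p = 0.00251). Thy1, another Adgre5 ligand, was 1.75-fold below its R2 level in R3 (adjusted p = 0.00491). Both ligands had their highest mean in R1, with means of 10.59, 10.14 and 9.37 in R1, R2 and R3 for Cd55 and 12.31, 11.70 and 10.89 for Thy1. Adgre5 itself was highest in R2 and was not called between R3 and R1.

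Lama2, a laminin chain that binds Adgrg6, was higher in both CD133+ gates. It stood at 10.57, 10.51 and 10.54 in R1, at 12.05, 12.06 and 12.15 in R2 and at 12.14, 12.36 and 12.05 in R3. R2 exceeded R1 2.92-fold (limma adjusted p = 5.17e-05), and R3 and R2 differed by 0.10 (95% interval -0.17 to 0.37). Of the collagen IV chains that bind the same receptor, Col4a1 and Col4a2 were 1.43-fold and 1.68-fold higher in R2 than in R1 (adjusted p = 0.0132 and 0.00414). Prnp, whose product also activates Adgrg6, was called in no comparison.

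Among latrophilin partners, Flrt2 was 2.90-fold higher in R2 than in R1 (limma adjusted p = 0.000192) and 2.02-fold higher in R3 than in R1 (adjusted p = 0.00147). Flrt1 was 2.02-fold and Flrt3 1.47-fold lower in R3 than in R1. Tenm2, a teneurin, stood at 9.82, 9.12 and 9.03 in R1, at 6.24, 6.41 and 6.90 in R2 and at 7.25, 6.20 and 7.57 in R3, 6.98-fold lower in R2 than in R1 (adjusted p = 0.000818). Tenm3 was 1.91-fold higher in R2 than in R1 (adjusted p = 0.0114).

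**Figure D4:**
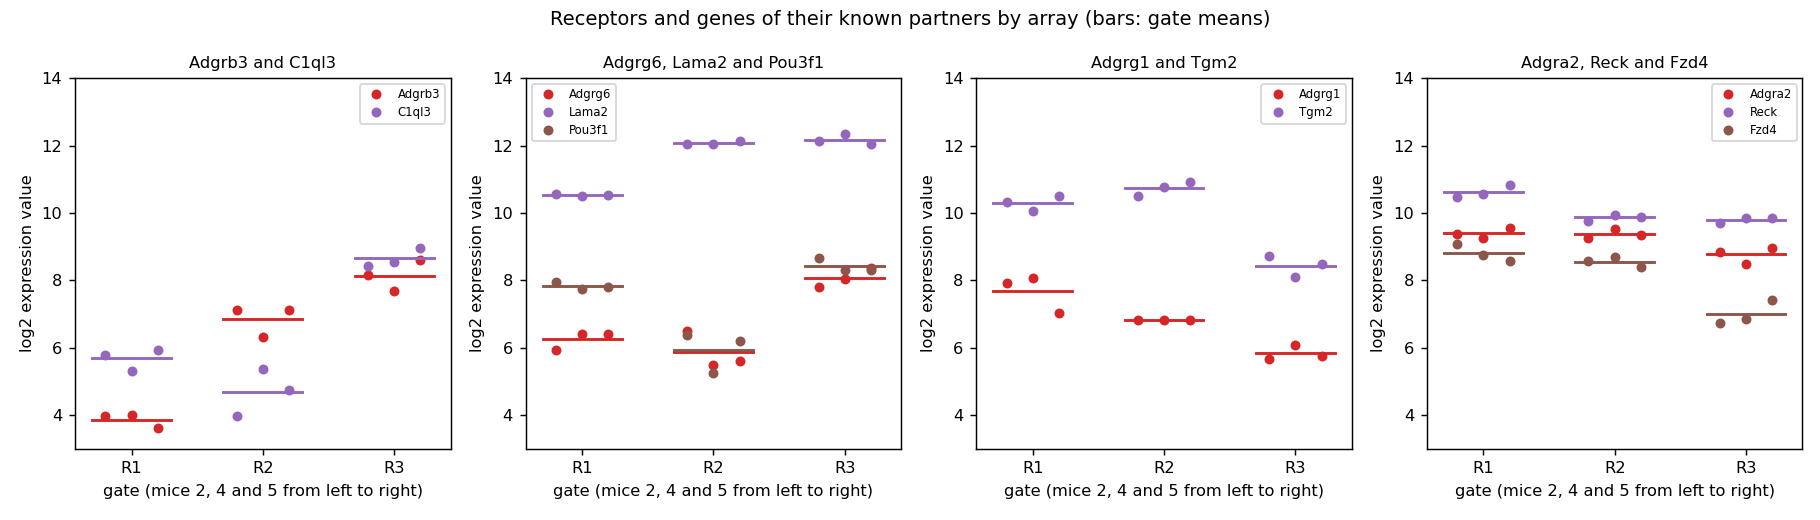
Log2 values (vertical axes) of receptors and of genes of their known partners on each array, by gate, with mice 2, 4 and 5 from left to right and bars at gate means. C1ql3 is high in R3 (8.44 to 8.97), Lama2 is high in R2 and R3, and Tgm2 and Fzd4 are low in R3.

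In the Wnt7 receptor complex of Adgra2, Fzd4, its Frizzled, was 3.49-fold lower in R3 than in R1 (limma adjusted p = 0.000287) and 2.94-fold lower than in R2 (adjusted p = 0.00193). Reck, the glycoprotein that binds Wnt7 with Adgra2, was 1.77-fold lower in R3 than in R1 (adjusted p = 0.00198) and already 1.69-fold lower in R2 (adjusted p = 0.00439). Lrp6, a Wnt co-receptor, went the other way, 1.96-fold higher in R3 than in R1 (adjusted p = 0.00158). The ligand genes Wnt7a (means of 4.79, 4.72 and 5.18 in R1, R2 and R3) and Wnt7b (5.66, 5.26 and 5.28) lay near or under the guide and were not called. Of the 6 genes of this list 1 was higher and 1 lower in R3 than in R2, 0 and 1 in R2 against R1, and 1 and 2 in R3 against R1. Over all genes 5.03%, 13.1% and 18.7% were called in these comparisons.

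The Celsr receptors, the planar polarity branch of the family, carry other symbols and were listed apart with their core partners. Celsr1, Celsr2 and Celsr3 were called in no comparison, with Celsr2 at means of 9.92, 9.71 and 9.80 in R1, R2 and R3. Of the 10 genes of this list 0 were higher and 1 lower in R3 than in R2, where 5.03% of all genes were called. Fzd6, which works with Celsr1 in hair orientation, was 4.55-fold below its R2 level in R3 (limma adjusted p = 0.00112) and 4.92-fold lower than in R1 (adjusted p = 0.000292). Fzd3 was 2.08-fold higher in R2 than in R1 and 2.30-fold higher in R3 than in R1 (adjusted p = 0.0045 and 0.00157).

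Most G proteins and effectors downstream of these receptors did not pass the test, and neither did most genes. Of 27 genes, 0 were higher and 1 lower in R3 than in R2, 1 and 1 in R2 against R1, and 3 and 3 in R3 against R1. In the same order, 5.03%, 13.1% and 18.7% of all genes were called in either direction. Adcy7, an adenylyl cyclase that makes cAMP, stood at 11.21, 11.33 and 11.69 in R2 and at 9.89, 9.66 and 10.15 in R3, 2.85-fold lower (limma adjusted p = 0.00125). Gnai2, an inhibitory G protein, was 1.66-fold higher in R2 than in R1 (adjusted p = 0.0194). Gnao1 and Gnaq, which encode G protein alpha subunits, were higher in R3 than in R1 by 0.59 and 0.76 on the log2 scale (adjusted p = 0.0136 and 0.0138).

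Adjacent receptor genes did not share one pattern. In the RefSeq gene order, Adgrf1 and Adgrf5 are next to each other on chromosome 17, Adgrg1 and Adgrg3 and also Adgre5 and Adgrl1 on chromosome 8, and Adgrl2 and Adgrl4 on chromosome 3. Adgrg1 and Adgrg3 were both lower in R3 than in R1, and Adgrf1 and Adgrf5 both higher in R2 than in R1. Adgre5 and Adgrl4 were higher in R2 than in R1, where their neighbours Adgrl1 and Adgrl2 changed by -0.16 and -0.20 (limma adjusted p = 0.709 and 0.325).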

How the data were processed

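Expression was measured on 9 one-colour arrays. Per the labels' protocols, column-purified total RNA was amplified (WT-Ovation Pico) and labelled with biotin. The authors deposited log2 values, made with RMA per the submitters' processing notes (background correction, quantile step, probe summary). For the RMA version, and for which arrays entered 1 run, nothing is stated in the sources used here. RMA gives no detection call, and quantile normalization and amplification can compress folds. For 33.5% of genes, 10 receptors among them, an exact value recurs on several arrays.

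Of 45101 probe sets, 34945 with 1 gene symbol and no control role gave 18193 genes (932 had several symbols, 9211 none, 64 were controls). Gates were compared with limma 3.58.1 in R 4.3.3 (lmFit, eBayes) on all 9 arrays without a mouse block, Benjamini-Hochberg adjusted over all genes, and called at an adjusted p under 0.05. The method was run on simulated data of independent normal values with the fitted spreads and changes added to R3 alone. Those data hold no pairing by mouse, so the run cannot speak to it. Same-numbered arrays come from 1 mouse. Their deviations from gate means correlated at 0.01 to 0.18, against -0.16 to 0.04 between mice. Every receptor is accounted for, and those called are given on every array. Of partner lists, genes with the lowest p and many, but not all, partners of called receptors are named. Sftpd, Tenm1 and Tenm4 are among the listed partners not described. Celsr1 to Celsr3, Csf1r and the macrophage genes given beside it were named beyond this rule, after their values were seen. The receptors and lists were chosen with earlier results of these data known. Some genes of the lists were not analysed here. Promoters were read with Python 3.11.15.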

Additional observations from a re-analysis of the deposited data

How the results depend on the processing

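Results were recomputed with a fixed or random replicate block for the mouse, without each array, on the 6 arrays of a comparison alone, after centring or repeated quantile normalization, with averaged or single probe sets, with robust variances along a mean trend, and on the brighter genes. With the fixed replicate block 7, 7 and 7 receptors were called (R3 against R2, R2 against R1, R3 against R1), and Adgrg1 in R2 against R1 was the only one whose call changed. Among the genes brighter than the median, which hold 9 of the 22 receptors, 4, 3 and 3 were called. Leaving out single arrays gave 5 to 8, 6 to 7 and 6 to 8 receptors. It gave 582 to 841 genes in all for R3 against R2 (915 with all arrays), 1554 to 2418 for R2 against R1 (2375) and 2519 to 3240 for R3 against R1 (3406). No called receptor changed direction under these alternatives. The uncalled change of Adgrg2 between R3 and R1 reversed to 0.14 with its second probe set. Scalings moved the median gene by at most 0.01. Precision is limited by the 3 arrays a gate has, and signal near the background guide limits Adgrb3 in R1, Adgrl4 in R1 and R3, and Adgrf1 and Adgrg3 in all gates.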
